A study of Mus musculus with 3 samples.

Results

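The 9 genes described here encode the MHC class II presentation machinery of the mouse and were selected by gene symbol from the 31053 genes of the count tables. They are *H2-Aa* and *H2-Ab1*, the α and β chains of I-A, *H2-Eb1*, the β chain of I-E, *Cd74*, the invariant chain, *Ciita*, the class II transactivator, *H2-DMa*, *H2-DMb1* and *H2-DMb2*, the chains of the peptide exchange factor H2-DM, and *H2-Oa*, the α chain of its inhibitor H2-O. All 9 were detected in every library.

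MHC class II molecules display peptides from endocytosed proteins to CD4+ T cells. Newly made αβ pairs bind the invariant chain, which fills the groove and directs them to endosomes, where proteases degrade it to the CLIP peptide. H2-DM then exchanges CLIP for antigenic peptide, and H2-O, best known from B cells, restrains H2-DM. Transcription depends on CIITA, a coactivator without DNA-binding activity that joins the RFX, CREB and NF-Y complexes at the X and Y boxes of class II promoters. B cells and dendritic cells carry class II constitutively, and macrophages and microglia raise it after interferon-γ, whereas mouse T cells make little of it.

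The scRNA-seq libraries came from female wild-type C57BL/6 mice of 6 to 8 weeks that received GBM cells, a mouse brain tumor-initiating line, in the right striatum. At 4 weeks after implantation, brain tissue flanking the injection site was dissociated. By the methods, a Percoll gradient then cleared myelin debris and enriched leukocytes, and live cells were sorted from that fraction. Cell numbers below are therefore those of a leukocyte-enriched fraction and not of whole tissue. The vehicle control group (vehicle control replicate 2, 1 library) received saline, and the niacin group (niacin replicates 1 and 2, 2 libraries) received niacin at 100 mg/kg daily by intraperitoneal injection from day 7. Each library is a pool, of 4 brain tissues by the labels and of 5 mice by the methods, so a library rather than a cell or a mouse is the replicate, and all mice carried tumors. In every list of 3 values below, the order is vehicle control replicate 2, niacin replicate 1 and niacin replicate 2.

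The libraries held 8301228, 9373321 and 10359526 UMIs (unique molecular identifiers, each a captured RNA molecule) in 2270, 2145 and 2532 barcodes. The median mitochondrial share of the barcodes was 8.85%, 3.08% and 3.29%. After removal of barcodes with fewer than 200 genes or over 20% mitochondrial UMIs, 5528 passed. Of all barcodes, 924 appeared in several libraries, with a second total at a median of 6.37% of the highest, and each was kept only where it had the most UMIs. The 4343 cells left were assigned to the class with the most detected markers out of 8 per class, at least 2 and more than for any other class, and the classes carry "-like" names because they rest on these markers alone. The microglia-like class held 438, 858 and 997 cells, the monocyte/macrophage-like class 272, 10 and 25, and the B cell-like class 21, 34 and 45. Values of the monocyte/macrophage-like class in niacin replicate 1 therefore rest on 10 cells. These counts depend on the treatment of shared barcodes, since this class held 289, 115 and 111 cells with every barcode kept and 169, 3 and 10 with all shared barcodes left out. Microglia-like cells detected all 8 of their own markers in each library, at a summed 9979 to 13285 CPM (UMIs per 1000000 UMIs of that class and library), against 31.3 to 209.7 CPM for the 8 monocyte/macrophage markers. Of the microglia-like cells, 98, 294 and 213 carried at least 2 markers of another class, as did 6, 16 and 23 of the B cell-like cells, and doublets were kept.

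Across 7 classes that held at least 10 cells in every library, the antigen-binding chains and the invariant chain were most abundant in B cell-like and monocyte/macrophage-like cells. In B cell-like cells, *H2-Aa* stood at 1367, 3819 and 3783 CPM, and in monocyte/macrophage-like cells at 3849.5, 191 and 3407 CPM. Both classes thus held 1 library well below the other two, the vehicle control library among B cell-like and niacin replicate 1 among monocyte/macrophage-like cells, and the ranges of the 2 classes overlapped. In microglia-like cells, *H2-Aa* reached 819.9, 94.0 and 156 CPM, highest in the vehicle control library. In T cell-like cells it was 106, 4.61 and 20.8 CPM, below the microglia-like value of the same library in all 3 libraries.

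*Cd74*, whose product is also a receptor chain for macrophage migration inhibitory factor, followed the same order. It averaged 10581.5 ± 5091 CPM (SD, n = 3 libraries) in B cell-like, 5777 ± 4137 in monocyte/macrophage-like, 1719 ± 782 in nonclassical monocyte-like and 1019 ± 1160 in microglia-like cells, then 485 ± 667 in choroid plexus-like, 168 ± 275 in neutrophil-like and 86.0 ± 95.9 in T cell-like cells. No neighbors in this order were separated, since the library ranges of each overlapped those of the next, and the same held for *H2-Aa*, *H2-Ab1*, *H2-Eb1*, *H2-DMb1* and *Ciita*. *Ciita* was the member with the smallest spread in B cell-like cells, at 296, 265 and 291 CPM. The libraries thus agreed closely for *Ciita* in this class, whereas in monocyte/macrophage-like cells it ran from 342 CPM in the vehicle control library to 11.2 and 119 CPM.

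The chains of H2-DM and H2-O were ordered differently. *H2-DMa* averaged 439 ± 209 CPM in monocyte/macrophage-like, 357 ± 178 in B cell-like and 265 ± 40.9 in microglia-like cells (SD, n = 3 libraries). The microglia-like libraries did not overlap those of the next class, nonclassical monocyte-like cells, at 102 ± 20.4 CPM. *H2-DMb1* had its steadiest level in microglia-like cells, at 133, 128 and 135 CPM. *H2-DMb2* and *H2-Oa* were highest in B cell-like cells, at 441 ± 256 and 254 ± 147 CPM (SD, n = 3 libraries), and for both genes no B cell-like library overlapped the class next in order, which for *H2-DMb2* was monocyte/macrophage-like cells at 28.7 ± 30.8 CPM and for *H2-Oa* microglia-like cells at 51.5 ± 8.37 CPM.

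**Figure D1:**
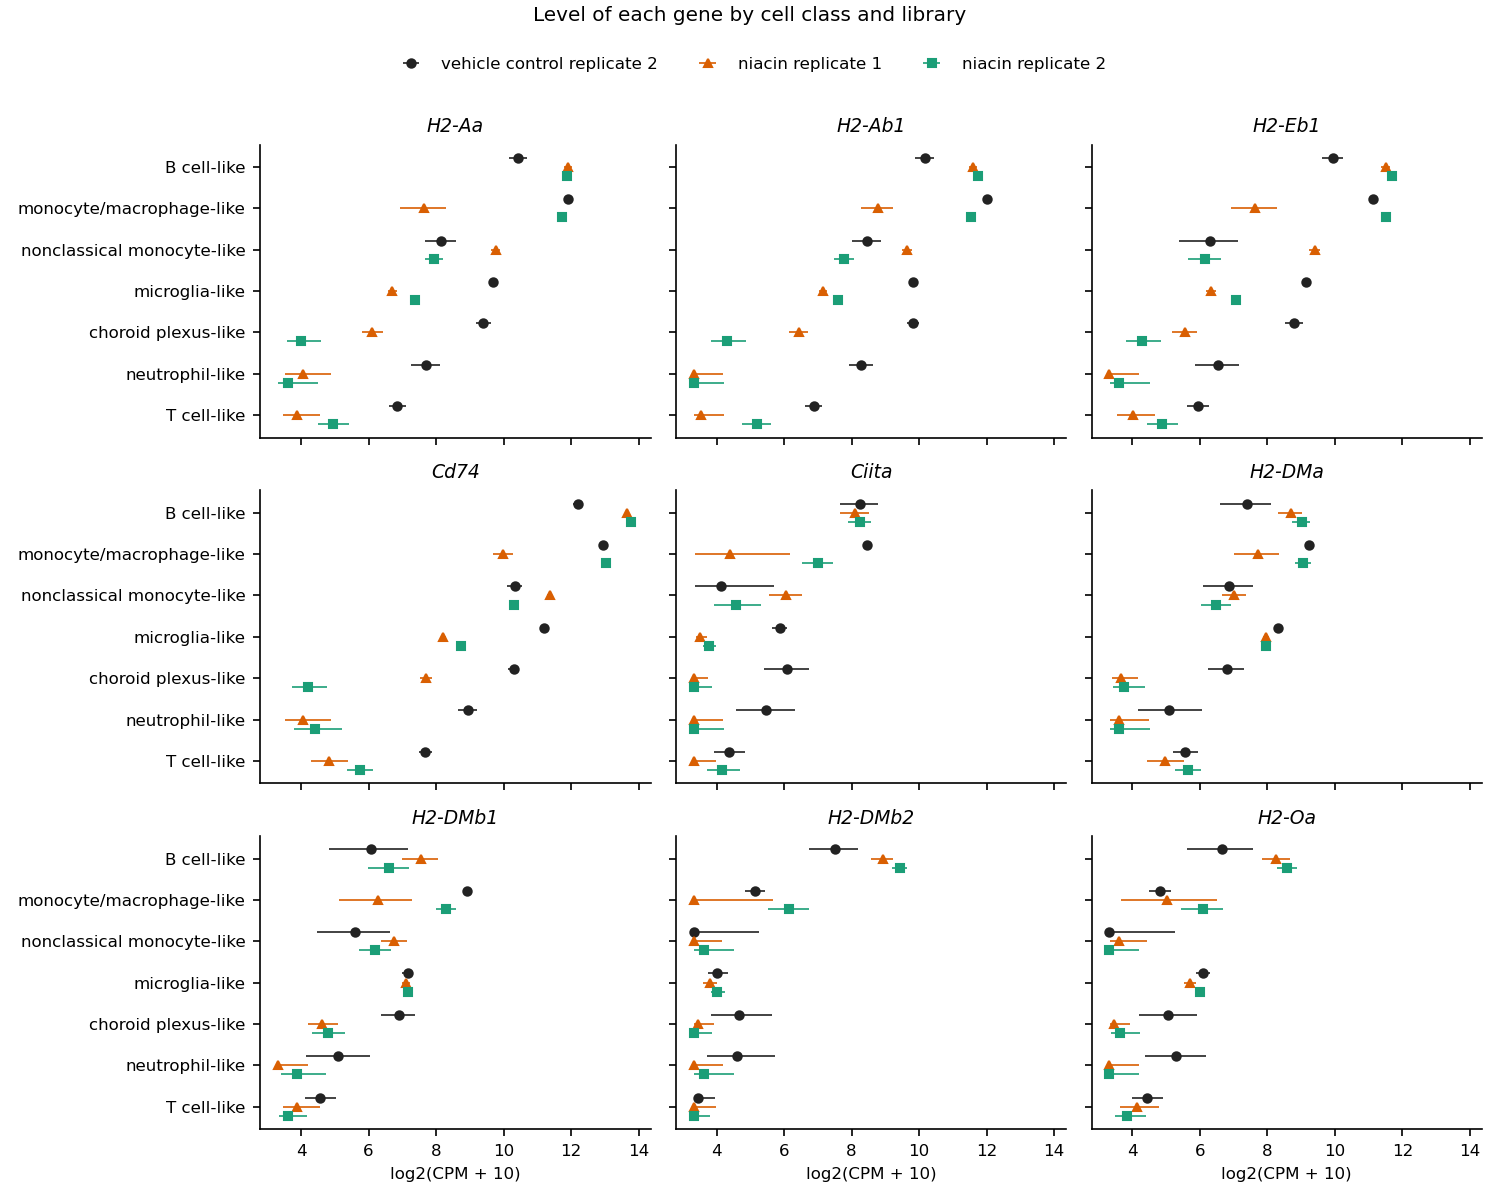
Level of each member, as log2(CPM + 10), in the 7 classes with at least 10 cells per library; a point is a library (1 vehicle control, 2 niacin) and bars are exact Poisson 95% intervals, which cover counting error only. *H2-DMb2* and *H2-Oa* peak in B cell-like cells, and the microglia-like point of the vehicle control library lies above both niacin points for *H2-Aa*, *H2-Ab1*, *H2-Eb1*, *Cd74* and *Ciita*.

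The cells that contributed most chain molecules differed between libraries. Of all UMIs of *H2-Aa*, *H2-Ab1* and *H2-Eb1* in a library, monocyte/macrophage-like cells held 59.5%, 1.35% and 25.8%, and microglia-like cells 16.3%, 23.3% and 20.3%. B cell-like cells held 0.903% in the vehicle control library but 29.3% and 22.6% in the niacin libraries. These shares combine the number of sorted cells with the level per cell, and the 2 cannot be told apart from the shares alone. Of the kept cells, monocyte/macrophage-like cells made up 20.5%, 0.704% and 1.56%, microglia-like cells 33.1%, 60.4% and 62.4%, and B cell-like cells 1.59%, 2.39% and 2.81%.

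The members covaried over classes and libraries, to differing degrees. Over 29 sums of a class in a library, the Pearson correlation with the mean log2 level of the 3 chains was 0.98 for *Cd74*, 0.92 for *Ciita*, 0.88 for *H2-DMa* and *H2-DMb1*, 0.75 for *H2-Oa* and 0.71 for *H2-DMb2*. *H2-DMb2* was closer to *H2-Oa* (0.86) than to its paralog *H2-DMb1* (0.47). These values describe points that share libraries and depth and that come from few cell lineages. Of 3101 genes ranked in the same way, those most like the chains outside the members were *Gm42031* at 0.84, *Snx2* at 0.82, *Ms4a4c* at 0.81 and *Cd83* at 0.79. *Ms4a4c* is 1 of the markers that defined the monocyte/macrophage-like class, and *Cd83* encodes a surface protein of mature dendritic cells and activated B cells.

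The class II genes are neighbors. On GRCm38, 7 of the members lie within 224.335 kb of chromosome 17 (34092340 to 34316674), in the order *H2-Oa*, *H2-DMa*, *H2-DMb2*, *H2-DMb1*, *H2-Ab1*, *H2-Aa* and *H2-Eb1* by start position, with *H2-Aa* on the minus strand and the others on the plus strand. *Ciita* lies on chromosome 16 (10480059 to 10528418). The promoter stretches below, from RefSeq (GRCm38.p6), are shown because the members covary in RNA level and class II promoters share a module through which CIITA acts. Promoter windows of 300 bases, 250 before to 50 after a RefSeq start, were matched for 6 of the 9 members. Capitals mark the Y box letters TGATTGG and the X box core letters AACNGATG, searched on both strands, and each printed stretch runs 5′ to 3′ on the gene's strand. The printed stretches are H2-Aa at chr17:34287849-34287968 (minus strand) and, on the plus strand, H2-Eb1 at chr17:34305722-34305841, H2-DMb1 at chr17:34153046-34153165, H2-DMb2 at chr17:34145104-34145223 and H2-Oa at chr17:34092234-34092353.
H2-Aa: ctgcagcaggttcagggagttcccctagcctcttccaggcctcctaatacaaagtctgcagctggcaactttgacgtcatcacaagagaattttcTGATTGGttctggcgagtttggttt
H2-Eb1: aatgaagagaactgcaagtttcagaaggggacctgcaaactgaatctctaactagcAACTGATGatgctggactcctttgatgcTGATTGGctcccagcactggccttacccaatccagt
H2-DMb1: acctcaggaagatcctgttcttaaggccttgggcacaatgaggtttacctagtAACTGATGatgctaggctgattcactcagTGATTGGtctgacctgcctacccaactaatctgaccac
H2-DMb2: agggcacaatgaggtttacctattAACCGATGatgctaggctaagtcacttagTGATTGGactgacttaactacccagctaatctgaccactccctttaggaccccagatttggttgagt
H2-Oa: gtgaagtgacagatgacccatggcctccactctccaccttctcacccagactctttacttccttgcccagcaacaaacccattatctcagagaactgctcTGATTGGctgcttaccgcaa

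The letters of both motifs were present in *H2-Eb1*, *H2-DMb1* and *H2-DMb2*, and the Y box letters alone in *H2-Aa* and *H2-Oa*. The search took exact letters only, so it does not show whether *H2-Aa* and *H2-Oa* hold an X box with other letters. Of 32851 promoter windows of the same length, 7.82% held the Y box letters, 2.32% the X box core letters and 0.186% (61 windows) both. The Y box began 50, 61, 63, 92 and 45 bases before the start of *H2-Aa*, *H2-Eb1*, *H2-DMb1*, *H2-DMb2* and *H2-Oa*. Neither motif was in the 2 windows of *H2-DMa*, which says only that these letters are absent there. The *H2-DMb1* and *H2-DMb2* stretches, whose genes had different levels in B cell-like cells, carry both motifs in the same order. These matches are a description of letters and not a measurement of binding.

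Microglia-like cells expressed less of nearly every member than monocyte/macrophage-like cells. *Ciita* was at 48.6, 1.43 and 3.68 CPM in microglia-like cells (118, 6 and 17 UMIs), against 342, 11.2 and 119 CPM in monocyte/macrophage-like cells. Microglia-like cells were lower within each library, although the ranges over all libraries overlapped. In edgeR's quasi-likelihood test on UMI sums of 3 libraries with library as a block, the log2 fold change was -3.91 ± 0.42 (SE) with an adjusted p of 1.52e-07. *H2-Ab1*, at 898, 132 and 183 CPM against 4133, 426 and 2940.2 CPM, differed by -2.90 ± 0.42 (edgeR adjusted p = 1.22e-05). *Cd74*, at 2357, 287 and 414 CPM against 7922, 1009 and 8402 CPM, differed by -2.85 ± 0.47 (edgeR adjusted p = 5.19e-05). For these genes, as for *Ciita*, the microglia-like value was the lower one in 3 of 3 libraries.

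In that comparison 8 of the 9 members were called lower, where 16.7% of the 10127 genes tested were, and no member was called higher, where 15.6% were. The chains *H2-Aa* and *H2-Eb1* were lower by a similar amount to *H2-Ab1*, at log2 fold changes of -2.90 ± 0.50 and -2.95 ± 0.49. The H2-DM chains differed less, with *H2-DMa* at -0.93 ± 0.33 (edgeR adjusted p = 0.0365) and *H2-DMb1* at -1.24 ± 0.40 (edgeR adjusted p = 0.0190), and *H2-DMb2* at -2.66 ± 0.57 (edgeR adjusted p = 0.000842). *H2-DMa* and *H2-DMb1* were not called with DESeq2, and these 2 and *H2-DMb2* were not called without niacin replicate 2. *H2-Oa* was at 58.1, 42.1 and 54.3 CPM in microglia-like cells and at 18.2, 22.4 and 57.9 CPM in monocyte/macrophage-like cells (log2 fold change 0.60 ± 0.39, edgeR adjusted p = 0.261). Its groups overlapped.

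T cell-like cells, which make little class II, gave 1 measure of the background in the same libraries, and other classes had more, since *H2-Ab1* in the vehicle control library was at 107 CPM in T cell-like, 301 in neutrophil-like and 894 in choroid plexus-like cells, against 898 in microglia-like cells. In microglia-like cells 7 members were called higher than in T cell-like cells, where 29.7% of the 10047 genes tested were. *H2-DMb1* was at 13.4, 4.61 and 2.19 CPM in T cell-like cells, below every microglia-like library, with a log2 fold change of 4.04 ± 0.31 (edgeR adjusted p = 3.69e-07). *H2-DMa*, at 37.4, 21.5 and 40.6 CPM in T cell-like cells, was likewise below every microglia-like library, with a log2 fold change of 2.81 ± 0.21. For the 3 chains and *Cd74* the log2 fold changes ran from 2.95 to 3.39, and for *H2-Oa* it was 2.55 ± 0.28. *Ciita* was not called (1.19 ± 0.61, edgeR adjusted p = 0.116), and *H2-DMb2* had too few UMIs to enter the fit.

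B cell-like cells had more *H2-DMb2* and *H2-Oa* than monocyte/macrophage-like cells. *H2-DMb2* was at 171, 473 and 679 CPM in B cell-like cells and at 24.8, 0 and 61.3 CPM in monocyte/macrophage-like cells. Every B cell-like library lay above every monocyte/macrophage-like one, and the log2 fold change was 3.63 ± 0.53 (edgeR adjusted p = 0.00124). *H2-Oa*, at 91.1, 296 and 375 CPM against 18.2, 22.4 and 57.9 CPM, was also separated in all libraries, with a log2 fold change of 2.86 ± 0.41 (edgeR adjusted p = 0.00111). These 2 were the members called higher, where 12.1% of the 3183 genes tested were, and no member was called lower, where 16.0% were. *H2-Ob*, the β chain of H2-O, was also called higher, at a log2 fold change of 4.16, and so was *H2-Eb2*, a second I-E β chain gene, at 6.05.

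The remaining 7 members were not called between B cell-like and monocyte/macrophage-like cells. *H2-Aa* had a log2 fold change of 0.78 ± 0.97 (edgeR adjusted p = 0.584), *Cd74* of 1.23 ± 0.75 (edgeR adjusted p = 0.255) and *Ciita* of 1.24 ± 0.60 (edgeR adjusted p = 0.162). *H2-DMb1*, at 56.9, 176 and 88.2 CPM against 478, 67.2 and 303 CPM, pointed the other way at -1.15 ± 0.69 (edgeR adjusted p = 0.247). Without niacin replicate 1, whose monocyte/macrophage-like sum comes from 10 cells, *H2-Aa* was -0.65, *H2-Ab1* -0.79 and *H2-Eb1* -0.47, so the sign of these 3 genes rested on that library, and *H2-DMb1* was then called lower (-2.28, edgeR adjusted p = 0.0141). Without the vehicle control library *Cd74* (2.36) and *Ciita* (2.11) were called higher as well, at edgeR adjusted p values of 0.050 and 0.039.

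**Figure D2:**
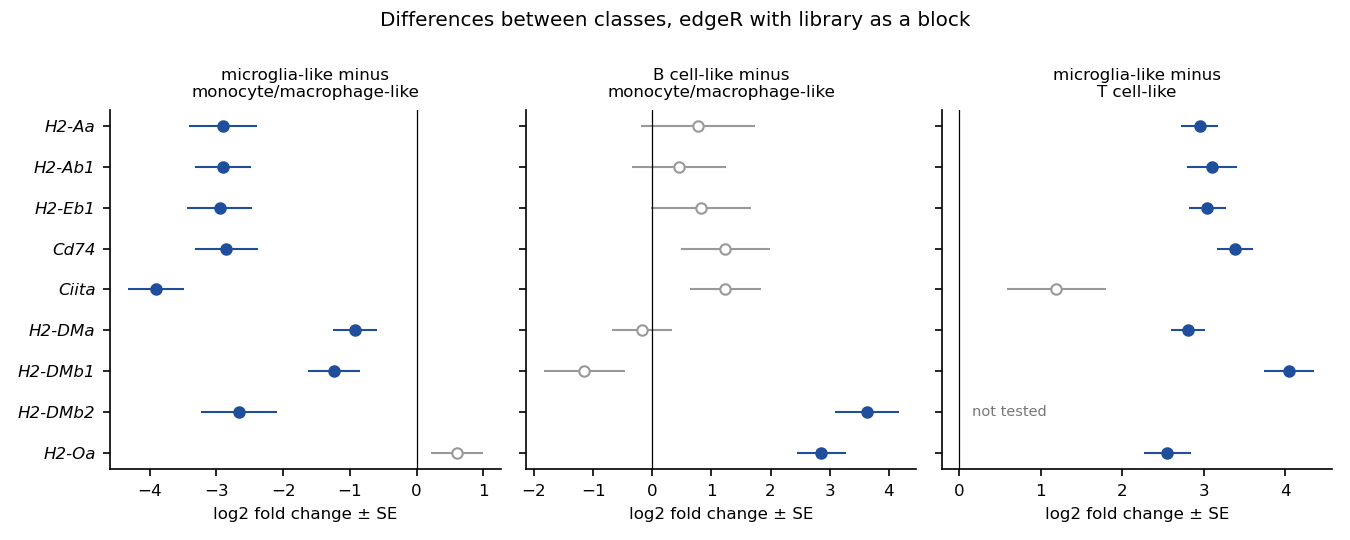
Log2 fold changes of the members between classes from edgeR, with SE as bars over 3 libraries and filled symbols where the adjusted p is under 0.05. Of the 9 members, 8 are lower in microglia-like than in monocyte/macrophage-like cells, and only *H2-DMb2* and *H2-Oa* are called higher in B cell-like than in monocyte/macrophage-like cells.

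The β chain of H2-DM was drawn from different genes in different classes. *H2-DMb2* gave 75.0%, 72.8% and 88.5% of the UMIs of *H2-DMb1* and *H2-DMb2* together in B cell-like cells. In microglia-like cells it gave 4.45%, 2.90% and 4.45%, and in monocyte/macrophage-like cells 4.93%, 0% and 16.8%. The B cell-like libraries did not overlap those of the other two classes, although the monocyte/macrophage-like share of niacin replicate 1 is 0 of 6 UMIs, with an exact binomial 95% upper bound of 45.9%. Dendritic cell-like cells, of which there were 12, 4 and 4, had 3.33%, 4.08% and 28.6%. The 2 genes are paralogs, and 206 of the 1588 stretches of 91 bases in the *H2-DMb1* transcripts (13%) also occur in *H2-DMb2* transcripts (11.8% of 1741). A read from such a stretch matches both genes, and how far this moves the split at the 3′ ends that were counted was not tested.

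**Figure D3:**
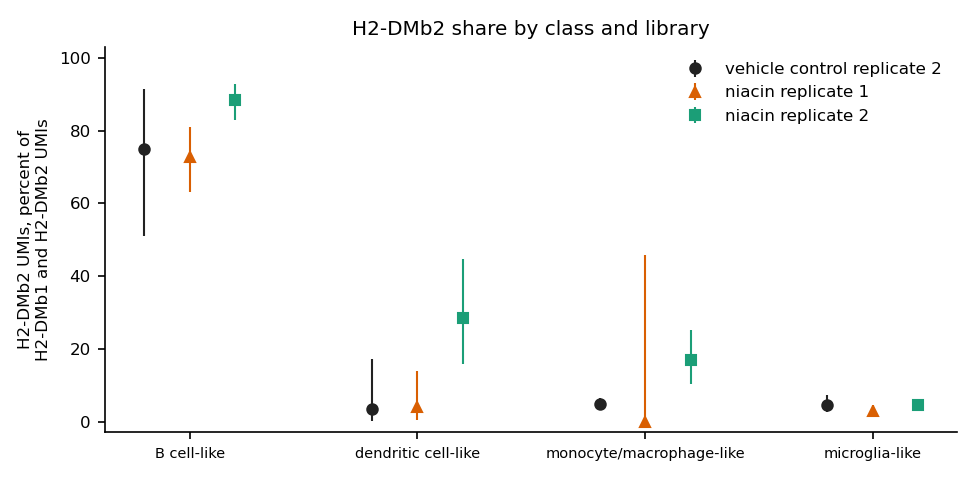
Share of *H2-DMb2* in the summed UMIs of *H2-DMb1* and *H2-DMb2* (percent), by class and library, with exact binomial 95% intervals for counting error. B cell-like cells lie between 72.8% and 88.5% and microglia-like cells between 2.90% and 4.45%.

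Within microglia-like cells the chains were unevenly spread. To compare cells at 1 depth, each was thinned to 2000 UMIs, which left 288, 667 and 655 cells and left out 150, 191 and 342. At least 1 UMI of any chain was found in 54.9% (exact binomial 95% interval 48.9% to 60.7%), 13.5% (11% to 16.3%) and 16.9% (14.2% to 20%), intervals that cover counting error only. Unthinned, the shares were 67.8%, 22.3% and 23.5%. In choroid plexus-like cells, thinned alike, any chain was found in 27.3%, 1.67% and 5.22%. In T cell-like cells any chain was found in 17.6% (11.6% to 25.1%), 3.66% (0.761% to 10.3%) and 6.72% (2.95% to 12.8%), with median depths of 6318.5, 7143 and 6970 UMIs before thinning against 7520.5, 6058 and 6427 in microglia-like cells. The vehicle control library was the highest for all 3 classes, and the microglia-like share was the highest of the 3 in each library. Any *H2-DMa* UMI was found in 42.7%, 35.4% and 35.1% of the microglia-like cells and in 7.35%, 8.54% and 6.72% of the T cell-like cells, so in the niacin libraries more microglia-like cells had a UMI of *H2-DMa* than of any chain. *Ciita* was seen in 5.90%, 0.450% and 0.458% of the microglia-like cells and in 0.735%, 0% and 0.840% of the T cell-like cells. In niacin replicate 1 these were 3 of 667 against 0 of 82 cells. The floor for the latter, set at 3 cells, was 3.66%, which is not an exact binomial bound. A difference in *Ciita* was thus not detectable at this depth in the niacin libraries.

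A few cells held most of the chain UMIs in the niacin libraries. The 5% of microglia-like cells with the most chain UMIs held 86.4% and 87.0% of them there, and 41.2% in the vehicle control library. Cells with at least 5 chain UMIs of 2000 made up 24.0% (19.1% to 29.3%), 2.10% (1.15% to 3.50%) and 2.75% (1.64% to 4.31%), and the highest single cell had 90, 70 and 123 chain UMIs. There were 40, 9 and 10 cells with at least 10 chain UMIs. Their median microglia-marker count was 14, 15 and 5 UMIs against 21, 27 and 28 in the other microglia-like cells, and 15%, 0% and 10% of them carried at least 2 monocyte/macrophage markers, against 7.26%, 0.760% and 0.930% of the others. Markers of other classes with many chain UMIs, such as B cell-like and dendritic cell-like cells, were not counted for this group. The part of mixed or wrongly assigned cells in it was not tested.

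**Figure D4:**
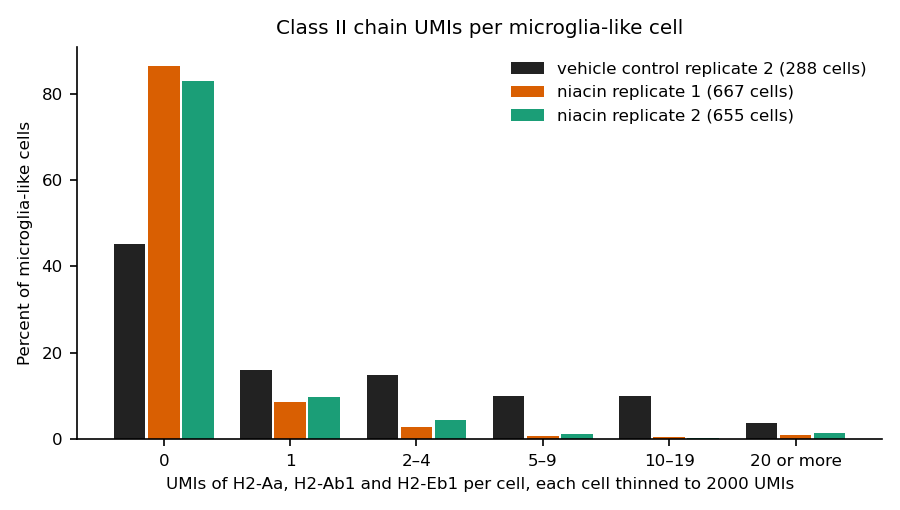
Share of microglia-like cells (percent) by the number of chain UMIs (*H2-Aa*, *H2-Ab1* and *H2-Eb1*) after thinning each cell to 2000 UMIs, for the 3 libraries. Cells without a chain UMI make up 45.1% in the vehicle control library and 86.5% and 83.1% in niacin replicates 1 and 2.

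Microglia-like cells that carried at least 2 of 7 measured activated microglia markers (such as *Itgax*, *Cst7* and *Lpl*) had more of the chains. There were 21, 4 and 8 such cells, and all values here are from thinned cells. The minimum of 10 cells per library, used for the classes, was not applied to this split. *Cd74* was at 4548, 11375 and 3125 CPM in activated cells and at 1897, 223 and 386 CPM in the others. *H2-Aa* was at 1714, 3500.0 and 875 CPM against 633, 81.4 and 168 CPM. Activated cells were higher in each library for both genes, and their ranges did not overlap those of the other cells. The log2 fold change was 2.85 ± 0.48 (edgeR adjusted p = 1.65e-06) for *Cd74* and 2.58 ± 0.45 (edgeR adjusted p = 4.46e-06) for *H2-Aa*, and *H2-Ab1* (2.12 ± 0.45) and *H2-Eb1* (2.42 ± 0.47) were called as well. In all, 4 members were called higher, where 0.636% of the 4715 genes tested were. *H2-DMa*, *H2-DMb1* and *H2-Oa* were not called, with log2 fold changes of -0.06 ± 0.52, -0.04 ± 0.66 and -0.10 ± 0.96, while the median of all genes tested was -0.38. Of the activated cells, 3, 0 and 2 also carried at least 2 monocyte/macrophage markers. Without niacin replicate 1 only *Cd74* and *H2-Aa* were called, and without niacin replicate 2 only *H2-Eb1*. No member was called with shared barcodes left out, with thinning to 1000 UMIs or with at least 3 activated markers required.

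Microglia-like cells were also split by the chains themselves, into cells with and without a chain UMI after thinning (158, 90 and 111 against 130, 577 and 544 cells). The members were not tested here, because 3 of them made the split. As a description, *Cd74* was at 3639, 1794 and 2171 CPM in the positive and at 208, 55.5 and 61.6 CPM in the negative cells, *H2-DMa* at 373, 278 and 365 against 219, 221 and 218 CPM, and *H2-DMb1* at 111, 200 and 198 against 92.3, 127 and 120.4 CPM. Of the 31 pathway genes tested, 5 were called higher in positive cells, where 0.810% of the 4814 genes tested were. They included the class I genes *H2-D1* (log2 fold change 0.93), *H2-K1* (0.90) and *B2m* (0.62) and the interferon-induced chemokine *Cxcl10* (1.40). *H2-K1* was at 2642, 1194 and 1401 CPM in positive and at 1104, 759 and 911 CPM in negative cells, higher in positive cells of each library (edgeR adjusted p = 7.33e-06). None of these genes was called without the library block, and without the vehicle control library only *H2-D1* and *H2-K1* were. Of the antigen processing genes tested, 0 of 6 were called, and of the RFX, NF-Y and CREB genes 0 of 2.

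Between treatments, the design has 1 vehicle control library, so the spread between control libraries is unknown and the tests below assume that it equals that between the niacin libraries, with 1 residual degree of freedom. The SEs of edgeR were below the gap between the niacin libraries for several members, as for *H2-Aa* in microglia-like cells, whose difference from the vehicle control library in log2(CPM + 10) was -3.0 and -2.32. In microglia-like cells, the chains, *Cd74* and *Ciita* were lower in both niacin libraries than in the vehicle control library. *H2-Aa*, at 819.9 CPM against 94.0 and 156 CPM, gave a log2 fold change of -2.63 ± 0.10 in edgeR and, in DESeq2, of -2.65 ± 0.63 with an adjusted p of 0.00261. *Cd74*, at 2357 against 287 and 414 CPM, gave -2.67 ± 0.11 in edgeR and -2.68 ± 0.47 with an adjusted p of 3.73e-06 in DESeq2. *Ciita*, at 48.6 against 1.43 and 3.68 CPM, gave -4.12 ± 0.29 in edgeR and -4.16 ± 0.67 with an adjusted p of 1.27e-07 in DESeq2, on 118 against 6 and 17 UMIs. *H2-Ab1* (-2.43 ± 0.10) and *H2-Eb1* (-2.42 ± 0.10) gave DESeq2 adjusted p values of 7.58e-07 and 0.0283. The niacin libraries did not overlap the vehicle control library for any of these 5 genes.

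*H2-DMb1* was near equal in the 3 libraries, at 133, 128 and 135 CPM (log2 fold change 0.07 ± 0.11, edgeR adjusted p = 0.710). *H2-Oa* (-0.19 ± 0.16) and *H2-DMb2* (-0.20 ± 0.51) were not called either. *H2-DMa*, at 312 CPM against 241 and 241 CPM, was called lower by edgeR (-0.29 ± 0.10, adjusted p = 0.0210) but not by DESeq2 (adjusted p = 0.687). It was also not called with shared barcodes left out (edgeR adjusted p = 0.671) or with cells carrying markers of another class left out (edgeR adjusted p = 0.240). Altogether edgeR called 6 members lower, where 14.7% of the 11501 genes tested were, and DESeq2 called 5, where 1.29% were.

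The vehicle control library also had more chain UMIs in classes that are not known as class II cells. *H2-Aa* was at 199, 6.78 and 2.30 CPM in neutrophil-like cells and at 668, 59.3 and 6.03 CPM in choroid plexus-like cells, and the T cell-like values given above had the same order of groups. In each of these classes the vehicle control library was the highest. With vehicle, *Ciita* was at 33.9 CPM in neutrophil-like and 58.3 CPM in choroid plexus-like cells, against 48.6 CPM in microglia-like cells. Its niacin mean was 0 CPM in neutrophil-like and in choroid plexus-like cells. In T cell-like cells *Ciita* was at 10.6 CPM with vehicle against a niacin mean of 3.84 CPM. Natural killer cell-like cells went the other way, at 4.67 against 15.7 CPM. In the vehicle control library microglia-like cells also had the higher summed level of monocyte/macrophage markers, at 209.7 CPM (8 of 8 detected). In the niacin libraries it was 31.3 (8 of 8) and 35.3 CPM (7 of 8, with *Arg1* at 0). The vehicle control library also had the higher mitochondrial share given at the start, which is a median over all barcodes of a library and not over microglia-like cells. The part of free RNA and of mixed cells in the difference was not tested, and treatment, pool and library cannot be told apart for the vehicle control library. With cells carrying markers of another class left out, the log2 fold change was -2.43 ± 0.11 for *H2-Aa*, -2.35 ± 0.10 for *Cd74* and -4.51 ± 0.43 for *Ciita* in edgeR. With at least 5 microglia markers required, it was -3.05 ± 0.21 for *H2-Aa* and -2.88 ± 0.18 for *Cd74*.

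**Figure D5:**
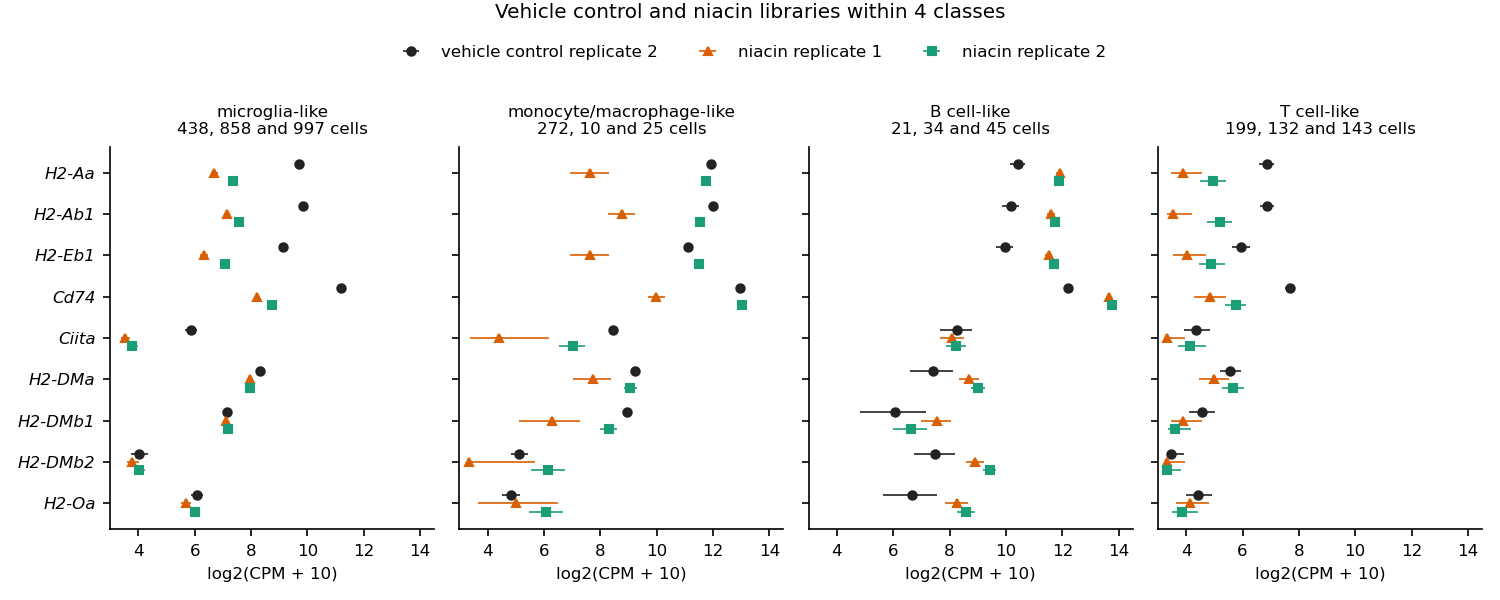
Level of each member, as log2(CPM + 10), in the vehicle control library and the 2 niacin libraries in 4 classes, with exact Poisson 95% intervals for counting error. In microglia-like cells *H2-Aa* falls from 819.9 to 94.0 and 156 CPM, while in B cell-like cells it goes from 1367 to 3819 and 3783 CPM.

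In B cell-like cells most members were higher in the niacin libraries. *Cd74* was at 4738 CPM with vehicle and at 12944 and 14062 CPM in the niacin libraries (log2 fold change 1.87 ± 0.17, edgeR adjusted p = 1.20e-10). *H2-DMb2*, at 171 against 473 and 679 CPM, gave 2.12 ± 0.38 (edgeR adjusted p = 6.60e-05). The vehicle control library was the lowest for both genes, and it holds 21 cells. With edgeR 7 members were called higher, where 5.94% of the 3384 genes tested were, and with DESeq2 5 were, where 2.93% were. However, 3018 of the 3384 genes received no DESeq2 adjusted p and could not be called. The share among genes that could be called is thus well above 2.93%. *Ciita* did not follow, at 296 against 265 and 291 CPM (0.28 ± 0.35, edgeR adjusted p = 0.676), nor was *H2-DMb1* called (1.51 ± 0.64, edgeR adjusted p = 0.138). With cells carrying markers of another class left out, none of the members was called, and *H2-Aa* changed from 1.84 ± 0.21 to 0.97 ± 0.43 (edgeR adjusted p = 0.193).

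In monocyte/macrophage-like cells the 2 niacin libraries disagreed. *H2-Ab1* was at 4133 CPM with vehicle and at 426 and 2940.2 CPM in the niacin libraries, differences of -3.25 and -0.49 in log2(CPM + 10). *Ciita* was at 342 against 11.2 and 119 CPM, differences of -4.05 and -1.45. *Cd74* was lower only in niacin replicate 1, at 7922, 1009 and 8402 CPM. Although edgeR called 2 members lower, *H2-Ab1* and *Ciita*, where 5.93% of the 5413 genes tested were, its SEs of 0.40 and 0.50 were far below the gap between the niacin libraries. DESeq2 gave SEs of 1.87 and 0.96 and called neither. With all barcodes kept, edgeR called 0 of the 6031 genes tested, so that alternative says nothing particular to these members. Both genes were thus lower in both niacin libraries, by amounts that differed widely, and a difference between treatments was called by edgeR alone.

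Genes upstream of *Ciita* and of related pathways were counted from lists that were chosen with earlier results of these data known. With niacin, edgeR called 17 of 18 interferon response genes lower in microglia-like cells (median log2 fold change -2.19), and 6 of 6 class I presentation genes (median -1.01), where 14.7% of all genes tested were called lower, 13.9% were called higher and the median was 0.01. DESeq2 called 11 and 4 of them lower, where 1.29% of all genes were called lower and 1.01% higher. Of 8 genes of the interferon-γ pathway upstream of *Ciita*, edgeR called 5 lower and 1 higher. *Irf1*, an interferon-induced factor that acts at a *Ciita* promoter, was lower at -1.56 (DESeq2 adjusted p = 1.43e-08), and *Ifngr1*, a chain of the receptor, was higher at 0.64 (DESeq2 adjusted p = 0.00356). The 7 genes of RFX, NF-Y and CREB had 2 called higher and 2 lower by edgeR and none by DESeq2 (median 0.03). Of 6 antigen processing genes, 2 were higher and 2 lower by edgeR, and of these DESeq2 called 1, *Ctsl*, a cathepsin that degrades the invariant chain, higher at 0.48 (adjusted p = 0.0404).

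Between microglia-like and monocyte/macrophage-like cells the same lists showed other directions. Of 6 antigen processing genes, 3 were called higher in microglia-like cells, namely *Ctsl* (log2 fold change 2.87), *Lgmn*, an asparaginyl endopeptidase (3.1), and *March8*, a ubiquitin ligase that can remove class II from the surface (1.38), and 0 were called lower. Of the 7 promoter factor genes, *Nfyb* alone was called, lower at -0.95. Of 18 interferon response genes 17 were lower (median -2.90), and of 6 class I genes 4 were. DESeq2 called 15 and 2 of these lower and no promoter factor gene. The costimulatory receptor gene *Cd40* was lower at -4.97, and the other 3 costimulation genes were not called. Over all genes tested, 16.7% were called lower and 15.6% higher here. In B cell-like against monocyte/macrophage-like cells, where the shares were 16.0% lower and 12.1% higher, 4 of 5 antigen processing genes tested were lower by edgeR and 3 by DESeq2, and 0 of 2 promoter factor genes were called.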

How the data were processed

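The files deposited by the authors hold raw UMI counts for each gene in each barcode, made with Chromium 3′ v3.1 kits and, by the submitters' processing notes, Cell Ranger 3.1 on mm10. Barcodes were filtered at 200 genes and 20% mitochondrial UMIs. Doublets were kept, and leaving out cells with at least 2 markers of another class was an alternative. UMIs of a class were added up within each library, and these sums were tested with edgeR 4.0.16 in R 4.3.3 (quasi-likelihood, TMM, filterByExpr, library as a block in class comparisons, Benjamini-Hochberg over all genes tested), with DESeq2 1.42.0 as an alternative. SEs were derived from the fold change and the F statistic. Thinning to 2000 UMIs drew molecules at random with a fixed seed. The test script was tested on simulated data. The text names the 9 members and, from the fixed lists, the genes past the test or asked for by a comparison. Members and lists were chosen with earlier results of these data known. *H2-Ea-ps*, *Ifi30*, *Clec7a* and *Ahsp* of the lists were not matched by symbol. Alternatives that require at least 5 microglia markers were chosen after seeing the data. With 1 residual degree of freedom, edgeR's SEs in the treatment comparisons can be smaller than the gap between the niacin libraries, so DESeq2 values are set beside them. A gene of the lists is counted but its values are not reported here.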

Additional observations from a re-analysis of the deposited data

Results flagged for a closer look

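For several members, the mean difference between the niacin libraries and the vehicle control library, in log2(CPM + 10), pointed one way in both niacin libraries of one class and the other way in both niacin libraries of another class. None of these differences between classes was tested, and there is a single vehicle control library. Between B cell-like and microglia-like cells the gap was 4.25 for *Cd74*, 4.13 for *H2-Aa*, 4.09 for *H2-Eb1*, 3.97 for *H2-Ab1*, 2.00 for *H2-Oa* and 1.81 for *H2-DMa*. *Cd74*, for example, was higher with niacin by 1.51 in B cell-like cells and stood at -2.74 in microglia-like cells. Between B cell-like and monocyte/macrophage-like cells it was 3.69 for *H2-Aa*, 3.38 for *H2-Ab1*, 2.67 for *H2-DMb1* and 2.29 for *H2-DMa*. *H2-Oa* differed by 0.97 between monocyte/macrophage-like and microglia-like cells, where the niacin libraries hold 2 and 17 UMIs of it among monocyte/macrophage-like cells.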

How the results depend on the processing

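Of the counts of members called, those in microglia-like against T cell-like cells (7) and in microglia-like cells between treatments (6) stayed within 1.5 times of the value given under every alternative run. The 8 members lower in microglia-like than in monocyte/macrophage-like cells numbered 5 to 8 with a library left out and 7 without the replicate block, and DESeq2 called 6. In B cell-like against monocyte/macrophage-like cells, 2 to 4 members were higher and 0 to 1 lower with a library left out, and 1 (*H2-DMb1*) was lower without a filter on low counts and with all barcodes kept. The 4 members higher in activated microglia-like cells became 0 with shared barcodes left out, with thinning to 1000 UMIs and with at least 3 activated markers, and 1 to 4 with a library left out. The 5 pathway genes higher in class II-positive cells became 3 with DESeq2, 9 without a filter, 0 without the replicate block, 8 with thinning to 4000 UMIs and 2 to 8 with a library left out. Between treatments, the 7 members of B cell-like cells became 0 with mixed cells left out, and the 2 of monocyte/macrophage-like cells became 0 with DESeq2 and with all barcodes kept. The cause of these shifts was not tested, although leaving out mixed or shared cells also leaves fewer cells.

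The share of microglia-like cells with a chain UMI followed depth, at 43.6%, 8.31% and 10.3% with thinning to 1000 UMIs, 64.9%, 20.9% and 23.6% with thinning to 4000 UMIs and 67.8%, 22.3% and 23.5% unthinned, in the library order used above. Signs turned only for members that were not called. In activated against other microglia-like cells, *H2-DMa* was 0.042 without the replicate block, 0.46 without mixed cells and 0.14 at 4000 UMIs, and -0.49 to 0.0021 with a library left out. *H2-DMb1* was 0.0086 with all barcodes kept, 0.30 with at least 3 class markers, 0.078 without mixed cells, 0.59 at 4000 UMIs and 0.32 with at least 3 activated markers, and -0.90 to 0.31 with a library left out. *H2-Oa* was 0.092 with all barcodes kept, 0.48 with shared barcodes left out, 1.21 with at least 3 class markers, 1.18 without mixed cells and 0.74 at 4000 UMIs, and -1.12 to 0.058 with a library left out. In B cell-like against monocyte/macrophage-like cells, *H2-Ab1* was -0.12 with all barcodes kept, and with a library left out the values ran from -0.79 to 1.63 for *H2-Ab1*, -0.65 to 2.13 for *H2-Aa*, -0.47 to 1.97 for *H2-Eb1* and -0.86 to 0.57 for *H2-DMa*. Between treatments, *Ciita* in B cell-like cells was -0.19 with shared barcodes and -0.40 with mixed cells left out, and in microglia-like cells *H2-DMb2* was 0.17 with shared barcodes left out and 0.14 with at least 5 microglia markers, and *H2-Oa* 0.033 with shared barcodes left out.

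Over all genes tested, edgeR called 1594 higher and 1696 lower between treatments in microglia-like cells and DESeq2 116 and 148. In monocyte/macrophage-like cells edgeR called 113 and 321, DESeq2 44 and 49, and edgeR with all barcodes kept 0 and 0. In B cell-like cells edgeR called 201 and 108, DESeq2 99 and 4, and edgeR without mixed cells 9 and 16. DESeq2 gave no adjusted p, and so no call, for 3883 of 5413 genes in monocyte/macrophage-like cells and 3018 of 3384 in B cell-like cells. In the class II-positive comparison this was so for 3733 of 4814 genes. In activated cells edgeR called 30 and 49, and 2 to 96 and 2 to 107 under the alternatives, and in class II-positive cells 39 and 2, and 8 to 63 and 0 to 9. In B cell-like against monocyte/macrophage-like cells it called 384 and 510, and 239 to 590 and 369 to 955 under the alternatives, and in microglia-like against monocyte/macrophage-like cells 1576 and 1689, and 1044 to 2055 and 1033 to 2272. In the last comparison the median of all genes was 0.12 with edgeR and 0.29 with DESeq2. No paired analysis was possible because the vehicle control and niacin groups share only the number 2, and without a niacin library the treatment comparison has no residual degrees of freedom. The test of dendritic cell-like cells was not run, as each niacin library held 4, and with monocyte/macrophage-like cells the alternatives with shared barcodes or mixed cells left out or at least 3 class markers were not run, as a library then held under 10. The B cell-like vehicle control library (21 cells) and the monocyte/macrophage-like niacin replicate 1 (10 cells) limit what these data can show of the members.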

Other observations

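Dendritic cell-like cells, too few for a test, had levels of several members above those of microglia-like cells in every library. In the library order used above, 12, 4 and 4 cells had *Cd74* at 9131, 4651 and 23749 CPM, *H2-Aa* at 3964, 1604 and 10059 CPM and *H2-DMa* at 609.8, 1398 and 830.1 CPM. In plasma cell-like cells (11, 3 and 3 cells) *Cd74* was at 3423, 3277 and 2496 CPM, while *H2-Aa* was at 566, 12.3 and 137 CPM, on 89, 1 and 6 UMIs. Nonclassical monocyte-like cells (28, 68 and 49 cells) had *H2-Aa* at 274, 860.4 and 236 CPM and held *H2-Oa* at 0, 1 and 0 UMIs.

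Cells that no class claimed (147, 49 and 75 cells) held 17.2%, 17.2% and 9.29% of the chain UMIs of their library, with *H2-Aa* at 4720.4, 4216 and 1861 CPM and *Cd74* at 9313, 11769 and 6276 CPM. Their *H2-DMb1* was at 507, 319 and 215 CPM and their *H2-DMb2* at 76.3, 106 and 21.5 CPM. A part of the class II signal of each library therefore lies in cells without a class in the comparisons above.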
